A study of Homo sapiens with 6 samples.

Results

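BCR, ABL1, EPOR, JAK2, STAT5A, STAT5B, PIM1, SOCS2, CISH and BCL2L1 are genes of the BCR-ABL1 and JAK-STAT signalling pathway. They were chosen by name, as the fusion partners, the receptor, the kinase, the transcription factors and the targets of this pathway, and they are 10 of the 19794 protein-coding genes of the GENCODE annotation of hg19 that have a coding transcript start site (TSS). A peak belonged to a gene when it shared at least 1 bp with the gene span extended by 20 kb on each side, here called the gene window. By this rule 61 distinct peaks were taken from the 28265 peaks of the list, and 4 of them belonged to both STAT5A and STAT5B, which are neighbours on chromosome 17.

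The study mapped SMARCA4, the ATPase subunit of the SWI/SNF chromatin remodelling complex, by ChIP-seq, to set its binding sites beside endogenous G-quadruplexes (G4s), the stacked structures that some guanine-rich DNA can fold into. The cells were K562, an established human chronic myelogenous leukaemia line, untreated, and crosslinked with 2 mM disuccinimidyl glutarate for 30 min followed by 1% formaldehyde for 10 min. There were 3 SMARCA4 ChIP libraries and 3 input libraries, the latter being the same chromatin without the antibody step. These ChIP libraries are biological replicates in the paper's words but technical replicates, with 1 input, in the description deposited with the data. The peak list holds regions found in at least 2 of the 3 ChIP libraries, so the replicates are pooled, no peak carries a height or a value per library, and no SD can be given. Shares are therefore printed with 95% Wilson intervals, which cover counting error only, and no test between groups was possible. These intervals treat peaks as independent. Many peaks share a gene window, so the intervals for peaks may be too narrow.

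In this pathway a cytokine such as erythropoietin binds a receptor that carries the kinase JAK2, and JAK2 phosphorylates STAT5, which enters the nucleus and binds DNA as a dimer. STAT5 switches on survival genes such as BCL2L1 and PIM1, and also CISH and SOCS2, whose products damp the same receptors. In chronic myelogenous leukaemia a translocation joins the 5′ part of BCR on chromosome 22 to the 3′ part of ABL1 on chromosome 9. The break in ABL1 falls at varied places upstream of exon 2, and the spliced transcript usually takes up ABL1 at exon 2. The fused tyrosine kinase is always active and keeps STAT5 phosphorylated without a cytokine.

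The label of the cell line was checked against marker genes. All 11 erythroid and megakaryocytic markers, such as GATA1, KLF1, TAL1 and HBG1, had a SMARCA4 peak within 1 kb of a coding TSS. Of 16 markers of lymphoid cells, liver, neurons and muscle, 1 did, the lymphoid gene RAG1. Over all coding genes the share with such a promoter peak was 46.8%.

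STAT proteins bind palindromes of the form TTCNNNGAA, and the promoter peaks of the feedback genes CISH and SOCS2 hold closely set pairs of them. These pairs are shown because runs of this motif were rare among the peaks. Positions are on hg19, each sequence is read in the direction of its gene, and capitals mark the STAT motifs. The CISH pairs lie at chr3:50649309-50649334 and chr3:50649427-50649446, upstream of the CISH TSS, and the second also falls in an annotated UTR of the divergent gene MAPKAPK3. The SOCS2 pair lies at chr12:93964672-93964691, upstream of 10 of the 12 coding TSSs of SOCS2.
CISH pair nearer the TSS: TTCTAGGAAgacgctgcTTCCGGGAA
CISH pair farther from the TSS: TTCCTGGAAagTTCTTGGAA
SOCS2 pair: TTCCTGGAAagTTCCTGGAA

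The motifs of a pair were 8 bp apart in the nearer CISH pair and 2 bp apart in the other CISH pair and in the SOCS2 pair. The centres of the CISH pairs lay 117 bp and 232 bp upstream of the canonical TSS, and that of the SOCS2 pair 1769 bp upstream of the canonical TSS of SOCS2, with other SOCS2 starts in between. All 6 motifs in these pairs were also of the stricter STAT5 type, TTCCNNGAA or TTCNNGGAA.

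CISH is an SH2 protein that binds activated cytokine receptors and blocks the docking of STAT5. Its promoter peak was 1345 bp wide (chr3:50648972-50650316), covered both of its coding TSSs, and also reached a TSS of MAPKAPK3, a kinase gene transcribed in the other direction. It held 5 STAT motifs, 4 of them within 300 bp. SOCS2 is a related inhibitor best known for limiting growth hormone signalling. Its larger promoter peak was 2514 bp wide (chr12:93963359-93965872), and it too held 5 STAT motifs with 4 within 300 bp, besides 5 G4 motifs. A peak of this width or more was found 55 times in the whole list, or 0.195%. With 10 GC-box motifs, the GGGCGG bound by SP and KLF factors, the SOCS2 peak also ran across a GC-rich promoter (66.5% GC).

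Over the whole list 4 peaks, or 0.0142%, had 4 or more STAT motifs within 300 bp, a threshold that was chosen after the values of CISH and SOCS2 were seen. The CISH and SOCS2 promoter peaks were 2 of these. Another lay over a TSS of BCL6, a transcriptional repressor (1703 bp, 6 STAT motifs). BCL6 belongs to the list of pathway targets used below. That list was chosen with earlier results of these data known, so its holding BCL6 is not independent support. The last, of 545 bp with 6 STAT motifs, lay 91.5 kb from the nearest coding TSS, that of AVL9. With at least 2 STAT motifs within 300 bp there were 3 of 61 member peaks, the other being a peak inside BCL2L1, against 1.40% of all peaks. In the RefSeq promoters of GRCh38.p14, which run over 300 bases around a start, 9 of the 10 genes were found, with SOCS2 not matched. The CISH promoter held 4 STAT motifs and the promoters of the other 8 matched genes held 0, while 7 of 35116 promoters (0.0199%) held 4 or more. At least 1 was held by 7.66% of these promoters, so a count of 0 is the usual case.

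**Figure D1:**
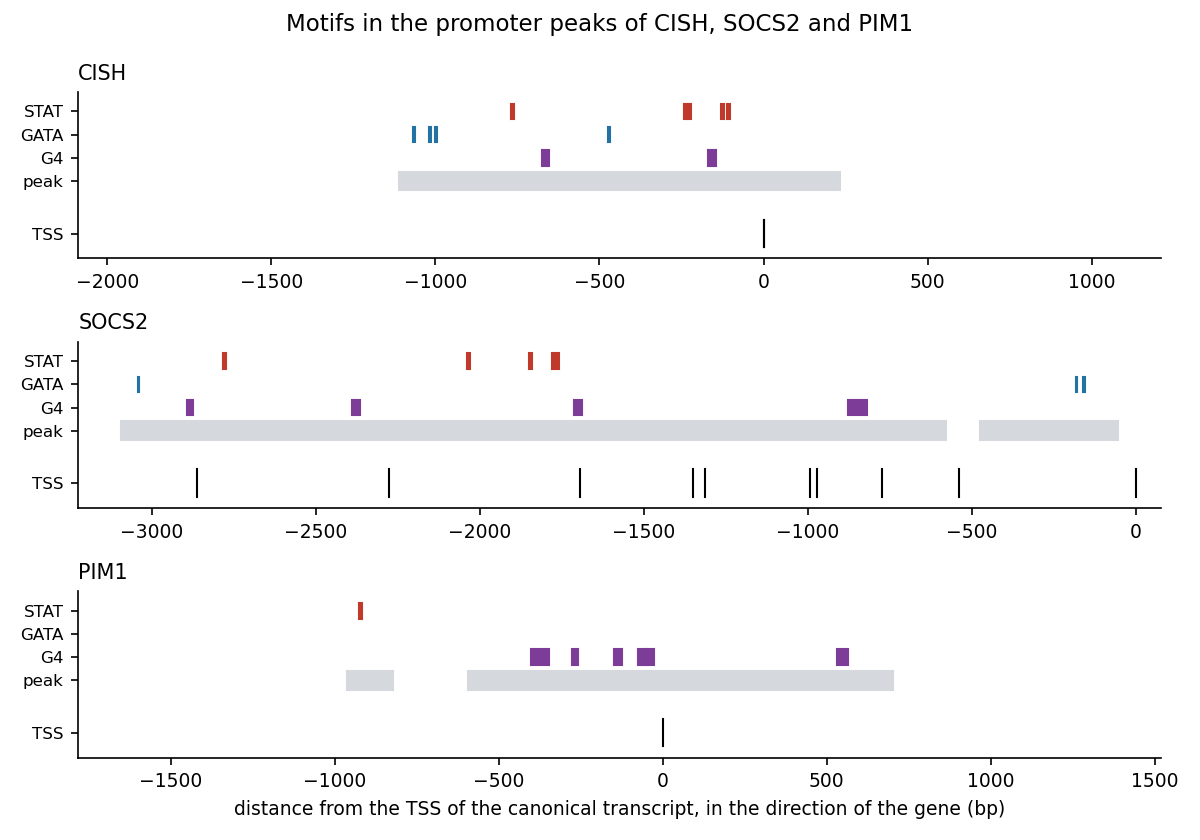
Position of STAT, GATA and G4 motifs (coloured boxes) in the promoter peaks (grey) of CISH, SOCS2 and PIM1, in bp from the TSS of the canonical transcript, with coding TSSs in the plotted stretch as black ticks. The STAT motifs of CISH and SOCS2 sit in groups, and PIM1 shows 7 G4 motifs around its TSS and 1 STAT motif in a separate upstream peak.

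PIM1, a serine/threonine kinase that promotes survival downstream of STAT5, had the densest window of the 10. Its window of 45.3 kb held 13 peaks, 28.7 per 100 kb, against a median of 1.81 over coding genes. Of all coding genes 20, or 0.101%, were as dense, and of those under 10 kb long, as PIM1 is, 0.367%. The peaks spanned 37.1 kb and covered 17.7% of the window, where the median coding gene had 0.698%. Gaps between neighbours ran from 215 bp to 7655 bp, with a median of 788 bp. Thus in the list the PIM1 locus was a cluster of peaks over the gene and both flanks. Its narrow peaks may be parts of wider regions. The PIM1 count and density were not recomputed with peaks at most 500 bp apart merged.

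The PIM1 promoter carried 2 peaks with different sequence. The larger one, of 1295 bp (chr6:37137334-37138628), covered the TSS and was 73.3% GC. It held 7 G4 motifs, 9 GC boxes and no STAT or GATA motif. A G4 motif was 4 tracts of 3 or more G joined by loops no longer than 7 bases, counted on both strands, and 0.251% of all peaks had 7 or more. That share is over peaks of every class and width. At least 1 G4 motif was held by 41.6% of promoter peaks, against 23.4% of all peaks. The smaller peak, of 142 bp, lay upstream and held a STAT5-type motif 923 bp from the TSS. The upstream peak (chr6:37136964-37137105) and 280 bases of the promoter peak before the TSS (chr6:37137638-37137917) are shown on the plus strand, which is the strand of PIM1, because they set the STAT motif beside the G4 motifs. Capitals mark the STAT motif in the first and 4 G4 motifs in the second, where runs of C stand for runs of G on the other strand.
PIM1 upstream peak: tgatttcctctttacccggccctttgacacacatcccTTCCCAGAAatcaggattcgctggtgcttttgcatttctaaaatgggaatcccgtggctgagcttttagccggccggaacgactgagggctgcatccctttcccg
PIM1 promoter stretch: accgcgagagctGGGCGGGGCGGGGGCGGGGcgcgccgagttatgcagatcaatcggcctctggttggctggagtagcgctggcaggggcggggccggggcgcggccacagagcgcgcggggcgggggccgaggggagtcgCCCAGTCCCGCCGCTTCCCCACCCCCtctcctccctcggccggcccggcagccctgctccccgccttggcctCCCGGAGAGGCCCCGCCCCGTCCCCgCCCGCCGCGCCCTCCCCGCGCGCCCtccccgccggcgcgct

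The other 11 PIM1 peaks were distal, which means within 1 kb of no coding TSS of any gene. The widest of them, 1543 bp, lay across the 3′ end of the gene in the last exon and held 5 GATA motifs over its length. Only 1.52% of all peaks were as wide. Upstream, 3 narrow distal peaks of 175 to 233 bp lay 5.45, 8.75 and 14.6 kb from the TSS, and the farther 2 each held a GATA motif. Downstream, peaks of 1004 and 953 bp lay 13 and 22 kb from the TSS, and held 3 and 0 GATA motifs over their length. The distal peaks upstream of PIM1 were thus narrow, and its wider ones, of 555 to 1543 bp, all lay inside the gene or downstream of it.

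BCL2L1 encodes BCL-XL, an inhibitor of apoptosis that is a STAT5 target in erythroid cells. Its window held 8 peaks, with 2 at its own promoters, 2 at the promoter of the neighbouring gene TPX2 and 4 distal. All 10 of its coding TSSs had a peak within 1 kb. The distal peaks inside the gene lay in the long intron after exon 2, at 15.4, 17.1 and 48.2 kb from its 5′ end. The last of these was 1023 bp wide (chr20:30263098-30264120) and held 6 GATA motifs and 2 STAT motifs over its length, neither of the latter being of the STAT5 type.

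**Figure D2:**
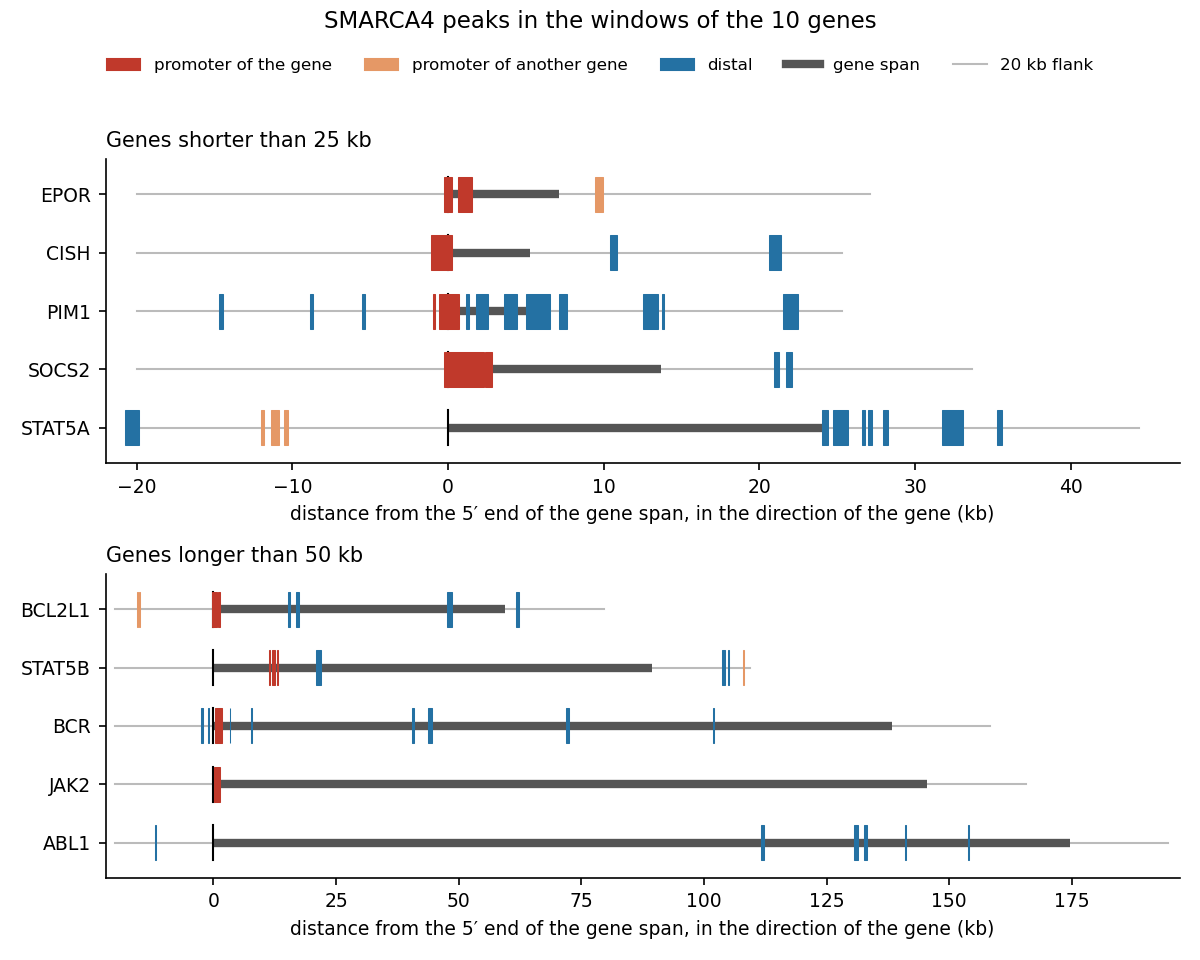
Peaks in each gene window by distance from the 5′ end of the gene span (kb, in the direction of the gene), coloured as promoter of the gene, promoter of another gene or distal, with the narrowest boxes drawn slightly wider than to scale. PIM1 has 13 peaks over a short gene, JAK2 has 1 in a long one, and the 5′ ends of the spans of STAT5A, STAT5B and ABL1 have no peak.

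EPOR, the erythropoietin receptor, had 3 peaks, of which 2 were at its promoter (486 and 888 bp) and 1 was at the promoter of the downstream gene SWSAP1. The peak over the EPOR TSS held a GATA motif and 4 E-boxes (CAGCTG or CAGATG), the motifs read by GATA1 and TAL1 in erythroid cells. JAK2, the kinase that EPOR carries, had 1 peak in 185.6 kb, a promoter peak of 1138 bp (chr9:4984508-4985645) that covered 2 of its 3 coding TSSs and held no STAT motif. Of the 3589 coding genes of at least 100 kb, 20.1% likewise had exactly 1 peak in their span. Of the 3 genes of the 10 that are this long, BCR and JAK2 had a promoter peak and ABL1 did not, where 44.4% of such coding genes had one.

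STAT5A and STAT5B, are the paralogous transcription factors at the end of the kinase cascade. STAT5B had 3 promoter peaks, of which the one over its canonical TSS was 505 bp wide and 82.4% GC, the highest GC content among the 61 peaks. It held 6 GC boxes and 1 G4 motif. Its neighbour of 235 bp, 0.784 kb upstream of the canonical TSS, held a GATA, an AP-1 (TGAGTCA or TGACTCA) and an E-box motif. STAT5A had no peak within 1 kb of any of its 9 coding TSSs, and the nearest peaks were 10.3 to 11.9 kb away, at the STAT5B promoter. The same stretch holds 2 of the 5 coding TSSs of STAT5B, which were 11 and 11.3 kb from the nearest peak, so both genes lacked a peak there. The sequence around the STAT5A TSSs is unique: 100% of the 75-base stretches cut every 25 bases within 1 kb of each TSS mapped back to their own place. Of the 11 peaks of the STAT5A window, 4 lay upstream of the gene. From the last exon of STAT5A onwards there were 7 distal peaks within 11.5 kb, of which 5 were inside the span of STAT3, the adjoining family member. The widest of these, 1377 bp, lay 32.4 kb from the 5′ end of STAT5A. Upstream, a peak of 940 bp in the first intron of STAT5B held 5 GATA motifs over its length and had 34.8% GC.

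BCR and ABL1 differed in where their peaks lay. BCR codes for a protein with a kinase domain and a domain acting on small GTPases. Its window of 178.3 kb held 9 peaks, of which 7 were inside the gene, or 5.06 per 100 kb, a density reached by 2.65% of coding genes of at least 100 kb. All 7 were upstream of exon 13, one of the exons next to the major breakpoint cluster of chronic myelogenous leukaemia. This stretch of 110 kb had 6.37 peaks per 100 kb, whereas the 28.5 kb from exon 13 to the end of the gene and the 20 kb beyond it had 0. At the density of the upstream stretch, the 28.5 kb from exon 13 to the end of the gene would hold 1.82 peaks, so the difference there amounts to few peaks. The 20 kb beyond the gene is not part of this figure.

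Uniqueness of the sequence differed along BCR as well. Upstream of exon 13, 97.4% of the 75-base stretches mapped back uniquely, against 81.3% from exon 13 on and 63.7% in the 3′ flank. The part of this in the absence of peaks was not tested. Reads from the intact and the fused copies of a gene map to the same place, so peaks upstream of the breakpoint in BCR cannot be told apart between them, and the copy number of these segments in K562 was not analysed here.

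The BCR promoter peak was 1328 bp wide (chr22:23522212-23523539), 74.1% GC, and covered the canonical TSS in exon 1. It held 7 GC boxes and 2 G4 motifs and no GATA motif. Upstream of the gene, 2 peaks of 436 and 372 bp lay 2.34 and 1.02 kb from its 5′ end, and both held GATA motifs in their central 200 bp. In the long intron after exon 1 there were 5 distal peaks, and the last peak, of 135 bp, lay 102 kb into the gene in the intron after exon 8. The intron peaks at 40.7, 44.2 and 72.2 kb each held a GATA motif in their centre. The central 200 bases of the nearer peak upstream of BCR (chr22:23520774-23520973) and of the intron peak at 40.7 kb (chr22:23562466-23562665) are shown on the plus strand as examples of the sequence that flanks and follows the promoter. Capitals mark the GATA motif, which is in both cases on the other strand.
BCR upstream peak: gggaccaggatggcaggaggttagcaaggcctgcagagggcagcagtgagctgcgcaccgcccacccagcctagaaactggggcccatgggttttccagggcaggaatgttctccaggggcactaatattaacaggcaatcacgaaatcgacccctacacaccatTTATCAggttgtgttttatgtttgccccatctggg
BCR intron peak: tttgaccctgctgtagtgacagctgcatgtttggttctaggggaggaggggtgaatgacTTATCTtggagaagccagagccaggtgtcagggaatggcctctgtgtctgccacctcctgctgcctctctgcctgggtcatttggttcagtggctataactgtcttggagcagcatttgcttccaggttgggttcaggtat

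ABL1, a tyrosine kinase of the nucleus and cytoplasm, had 6 peaks in 214.6 kb and none within 1 kb of its 3 coding TSSs. The nearest peaks were 11.7, 12.6 and 8.79 kb from these TSSs. Within 1 kb of them, 94.8% to 100% of the 75-base stretches were unique. The gene begins with 2 alternative first exons far apart, and the first 112 kb of its span, which hold the upstream start and most of the long first intron, had no peak. The canonical transcript starts 122 kb into the span. The 5 peaks inside the gene lay at 112, 131, 133, 141 and 154 kb, which put 3 of them upstream of the start of exon 2 and 2 downstream of it. Exon 2 is the first ABL1 exon that the usual fusion transcript keeps, but the fused gene can also keep intron sequence before it, and which of the peaks upstream of exon 2 lie on the fused copy was not analysed here.

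Inside ABL1 the density was 2.86 peaks per 100 kb, a value that 10.5% of coding genes of at least 100 kb reached. Having no promoter peak and at least 4 peaks inside the span, as ABL1 did, was found for 3.29% of coding genes of this length and 0.798% of all coding genes. This rule was not planned and follows the pattern of ABL1 itself, so the shares only describe it. In the 18.8 kb between the canonical first exon and exon 2 the density was 10.6 per 100 kb, from 2 peaks, and from exon 2 to the end of the gene it was 5.95 per 100 kb, also from 2. The 3 peaks upstream of exon 2 were of nearly equal width, 626, 630 and 623 bp, and those downstream were narrower, 182 and 249 bp. The remaining peak, of 185 bp, lay 11.8 kb upstream of the gene in the neighbouring gene EXOSC2.

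The ABL1 peak at 141 kb lies on the border of exon 2 and the intron that follows it. It is shown whole (chr9:133729550-133729731), with the central 200 bases of the intron peak at 133 kb (chr9:133721316-133721515), because these peaks lie on either side of the start of exon 2. Both are on the plus strand, the strand of the gene, and capitals mark GATA motifs. In the exon 2 peak 1 motif is in the coding exon and 1 in the intron.
ABL1 exon 2 peak: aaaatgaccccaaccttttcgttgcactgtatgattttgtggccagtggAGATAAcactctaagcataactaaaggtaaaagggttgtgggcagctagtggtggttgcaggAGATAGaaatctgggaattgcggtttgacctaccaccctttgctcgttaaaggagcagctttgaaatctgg
ABL1 intron peak: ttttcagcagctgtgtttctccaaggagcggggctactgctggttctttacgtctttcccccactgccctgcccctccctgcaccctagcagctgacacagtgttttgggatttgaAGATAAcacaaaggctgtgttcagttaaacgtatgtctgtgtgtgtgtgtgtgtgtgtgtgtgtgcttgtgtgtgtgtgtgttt

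The intron peaks at 112 and 133 kb had 40.4% and 39.5% GC and the one at 131 kb had 49.7%, where the median over all distal peaks was 46.8%. Those at 112 and 133 kb held 4 and 3 GATA motifs over their length. The peak at 131 kb held 2 GATA motifs and 1 STAT5-type motif, the only STAT motif in the ABL1 peaks. The last peak, in the intron after exon 4, held a CTCF motif. In the central 200 bp, CTCF motifs were found in 3 of the 43 distal member peaks (6.98%, 2.40 to 18.6), and the 2.99% of all distal peaks lies within this interval. Over whole distal peaks the gap was wider, with 5 of the 43 (11.6%) against 3.93%.

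**Figure D3:**
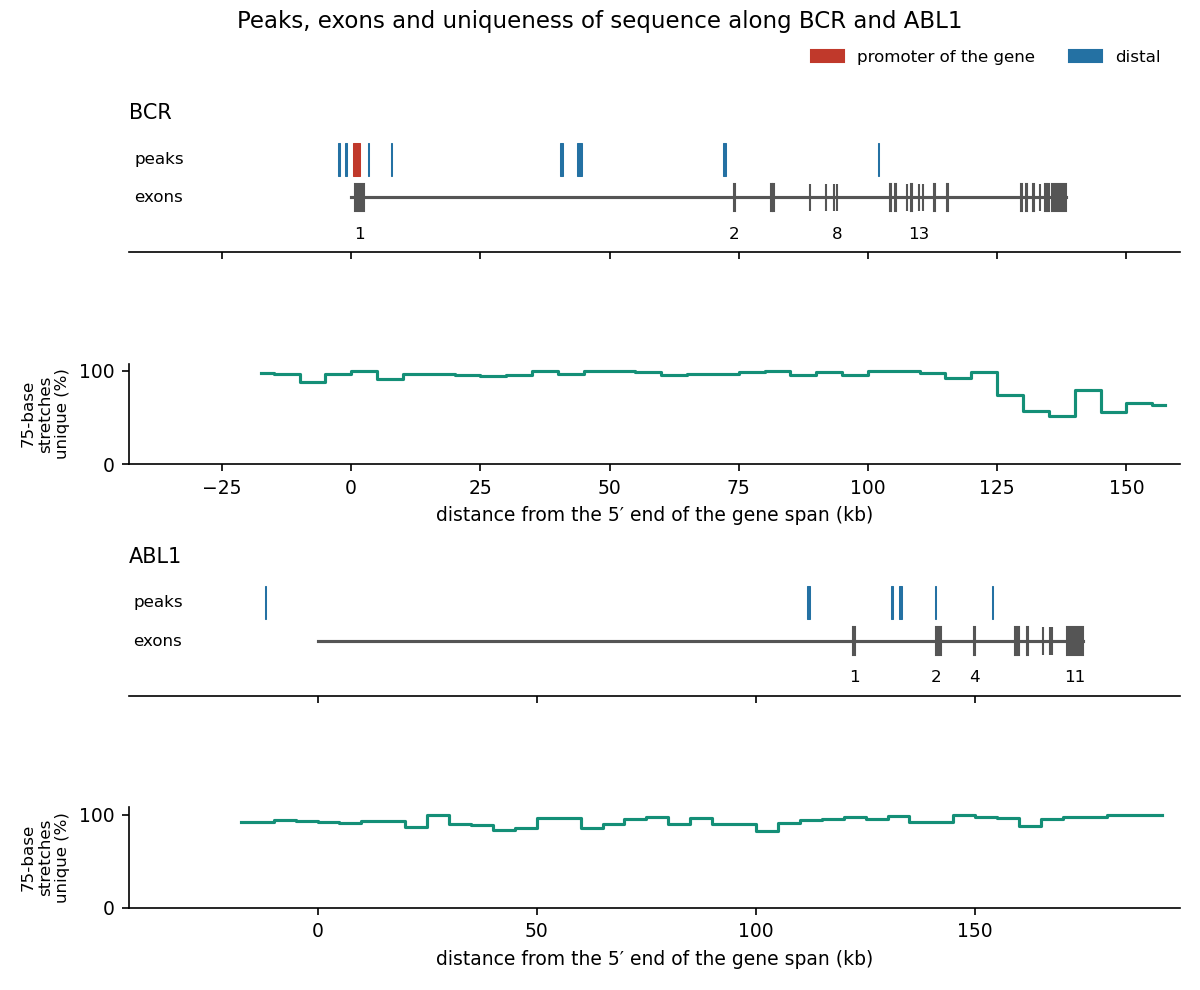
Peaks and exons of the canonical transcript along BCR and ABL1 by distance from the 5′ end of the gene span (kb), with the share of 75-base stretches that map uniquely in bins of 5 kb (%). BCR peaks stop before exon 13, ABL1 has no peak in the first 112 kb of its span, and the unique share falls in the 3′ part of BCR.

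Over the 10 genes together, all had at least 1 peak in the window, where 67.8% of coding genes did, and 8 had at least 1 distal peak, against 44.3%. A promoter peak was found for 8 of the 10 (80.0%, 49.0 to 94.3), the exceptions being ABL1 and STAT5A, and the 46.8% of all coding genes lies just below this interval, which rests on 10 genes. Of 50 coding TSSs of these genes, 33 had a peak within 1 kb and 26 were covered by one, where the shares over 78474 coding TSSs were 42.5% and 29.1%. SOCS2 and BCL2L1, with many starts close together, gave 10 each of the 33. The median window held 6.50 peaks, or 6.49 per 100 kb, where the median coding gene had 2.00 and 1.81.

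Of the 61 peaks, 14 were at the promoters of the members, 4 at the promoters of other genes and 43 were distal. Only starts of coding transcripts count here. Some distal peaks, such as those inside PIM1 and upstream of BCR, lay within 1 kb of another annotated transcript start of the same gene. The distal share was 70.5% (58.1 to 80.4), against 58.3% of all peaks, which lies just inside the interval. The distal peaks were unevenly spread, with 11 in the PIM1 window and 8 each in those of BCR and STAT5A. The peaks had a median width of 441 bp (95% interval of the median 304 to 623), and the median of 368 bp over all peaks falls within it. Promoter peaks of the members had a median of 696 bp (235 to 1328) and distal peaks one of 436 bp (261 to 626). All promoter peaks had a median of 420 bp and all distal peaks one of 341 bp, both within these intervals. The widths ran from 92 bp, for a peak in the first intron of BCR, to the 2514 bp of SOCS2. In each of CISH, SOCS2, BCR, EPOR and JAK2 the widest peak was a promoter peak, while in ABL1, STAT5A, STAT5B, PIM1 and BCL2L1 it was distal.

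**Figure D4:**
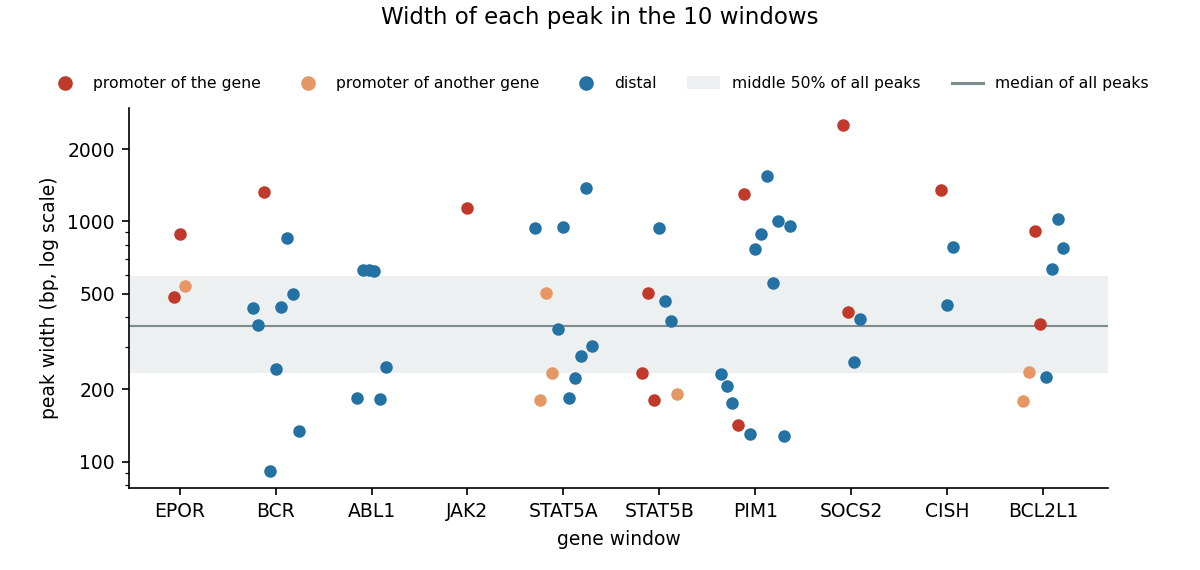
Width of every peak in the 10 windows (bp, log scale), coloured by class, with the median of all 28265 peaks as a line and their middle 50% (237 to 586 bp) as a band; peaks shared by STAT5A and STAT5B are drawn in both. The widest peak is the SOCS2 promoter peak of 2514 bp, and the narrowest, of 92 bp, is in BCR.

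Motifs were counted in 200 bp around the midpoint of each peak, on either strand, and G4 motifs in the whole peak. In the 12 member peaks narrower than 200 bp this stretch runs past the borders of the peak, so a counted motif can lie outside it. GATA motifs (AGATAA or AGATAG, or the same with T as their first letter), which GATA1 reads in these cells, were found in 18 of the 43 distal member peaks (41.9%, 28.4 to 56.7), against 58.8% of all distal peaks. Over whole distal peaks the shares were 53.5% and 68.3%. At promoters the order was the other way, with GATA motifs in 4 of the 14 member peaks (28.6%, 11.7 to 54.6). The 14.2% of all promoter peaks lies within this interval. Over all 61 peaks the share was 36.1% (25.2 to 48.6), and the 40.2% of the list lies within this interval. E-boxes were found in 20 of the 43 (46.5%, 32.5 to 61.1), against 30.8% of all distal peaks. The shares of AP-1 motifs were 6.98% (2.40 to 18.6) and 18.4%, and those of RUNX motifs (TGTGGT) 18.6% (9.74 to 32.6) and 14.7%, each within the interval of the members. At promoters, GC boxes were found in 10 of the 14 member peaks (71.4%, 45.4 to 88.3) and in 54.9% of all promoter peaks, and ETS motifs (CCGGAAG) in 0 of the 14 and in 10.2%. Over whole promoter peaks, 4 of the 14 (28.6%) held an ETS motif, against 19.1%.

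STAT motifs were infrequent in the centres. They were found in 3 of the 61 peaks (4.92%, 1.69 to 13.5), against 6.49% of all peaks, and in 0 of the 43 distal ones (0 to 8.20), against 8.41%. Over whole distal peaks the order was reversed, with 9 of 43 (20.9%) against 15.1%. At promoters the share in the centres was higher than in the list, with 2 of 14 member peaks (14.3%, 4.01 to 39.9). The 3.79% of all promoter peaks lies just below this interval, which rests on 14 peaks. In whole peaks, 13 of the 61 (21.3%, 12.9 to 33.1) held 22 STAT motifs, 15 of them of the STAT5 type, against 12.8% of all peaks. The windows of CISH held 7 of the 22, SOCS2 5, PIM1 3, BCL2L1 3, STAT5A 2 and BCR and ABL1 1 each, and 1 of the BCL2L1 motifs was in a peak at the TPX2 promoter. The member peaks had a larger median width than the list, and its part in the share over whole peaks was not tested. A motif is a match of letters, and binding of STAT5 or GATA1 was not measured.

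G4 motifs were found in 18 of the 61 peaks (29.5%, 19.6 to 41.9), against 23.4% of all peaks. The share was 8 of 14 at promoters (57.1%, 32.6 to 78.6), against 41.6%, and 9 of 43 in distal peaks (20.9%, 11.4 to 35.2), against 10.3%. PIM1 and SOCS2 promoter peaks held the most, with 7 and 5. Distal member peaks were also richer in GC than distal peaks in all, with a median of 51.4% against 46.8%. Their median width was larger as well, 436 bp against 341 bp, and G4 motifs were counted over the whole peak. The part of GC and of width in the share of G4 motifs was not tested.

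**Figure D5:**
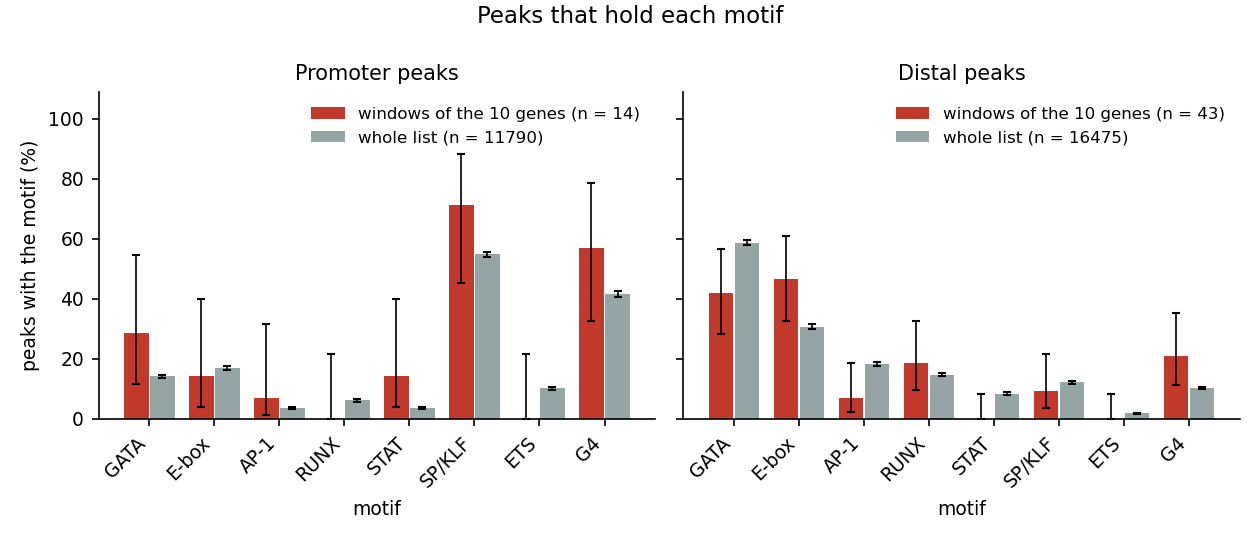
Share of promoter peaks (left) and distal peaks (right) that hold each motif (%), for the windows of the 10 genes (red) and the whole list (grey), with 95% Wilson intervals as bars. Member intervals are wide, and for distal peaks the GATA share is 41.9% beside 58.8% and the E-box share 46.5% beside 30.8%.

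The pathway was then followed beyond the 10 genes with a list of 57 others. A promoter peak was found for 37 of them (64.9%, 51.9 to 76.0), above the 46.8% of all coding genes. The median window held 3 peaks, or 3.92 per 100 kb, against 2.00 and 1.81 over all coding genes. Receptors stood at the low end: only IL6ST, the shared subunit of the interleukin-6 family, had a promoter peak among 10, and CSF2RB, KIT and PRLR, among others, had no peak in the window. CSF2RA and IL3RA also had none, and 83.8% and 79.4% of the 75-base stretches of their windows mapped back uniquely. The part of this in the absence of peaks was not tested. EPOR, described above, had 2 promoter peaks. Of 7 kinases, 4 had a promoter peak, JAK1, TYK2, SRC and FYN, while JAK3 and ABL2 were among those without, so that both ABL kinases lacked one.

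Of the 5 other STAT genes, STAT4 alone had no promoter peak, and STAT6 had 15 window peaks, 5 of them at its promoters. Negative regulators had a promoter peak in 14 of 18 cases, with SOCS6, PTPN6, DOK2 and INPP5D as the exceptions. All 7 adaptors, among them GRB2 and GAB2, which couple the BCR-ABL1 kinase to RAS and PI3K signalling, had one, and GAB2 had the most window peaks, 11. Of 10 further targets 7 had a promoter peak, while BCL2, CCND1 and OSM did not. BCL2 and CCND1 had no peak in the window, whereas the related genes BCL2L1 and CCND3 had 8 and 15. ID1, a short gene near BCL2L1 on chromosome 20, had 8 window peaks or 19.4 per 100 kb.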

How the data were processed

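SMARCA4 ChIP-seq of K562 cells was analysed from the list of regions deposited by the authors. The deposited values carry no other measurement than a position: where each region starts and ends on hg19, in bp. The authors trimmed reads with cutadapt 1.16, aligned them with BWA 0.7.15, removed duplicates with Picard 2.14.0 and SAMtools 1.6, called peaks per library with MACS2 2.1.1 (q-value threshold of 0.05) and used bedtools 2.26.0 to keep regions found in at least 2 of 3 libraries.

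Genes and sequence came from GENCODE 44 and the genome of the same build. Python 3.11.15, numpy 2.4.6, scipy 1.17.1, pysam 0.24.0 and matplotlib 3.10.9 were used. Promoter peaks reach within 1 kb of a coding TSS. Uniqueness was measured with minimap2 2.31-r1302 at a mapping quality of at least 10, a check added after the data were seen. Overlap and motif counts were tested on simulated data. All 10 members were named, with every gene of the pathway list counted, though some genes of the lists are not reported here by name. The members and lists were chosen with earlier results of these data known. Library depth was not used here. Alternatives were narrower or wider windows, promoter rules, a minimum width of 200 bp, merging within 500 bp, whole-peak motifs and longer G4 loops.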

Additional observations from a re-analysis of the deposited data

How the results depend on the processing

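Of 11 counts, shares and widths, each was recomputed under those of 9 alternatives that bear on it, which gave 35 values. Of these, 31 stayed within 1.5 times a count or within the interval of a share or median, and 4 did not. Merging peaks at most 500 bp apart moved the median width to 630 bp. Searching whole peaks raised the share with a STAT motif to 21.3%, beside 12.8% of all peaks, and G4 loops of up to 12 bases raised the share with a G4 motif to 45.9%, beside 34.2%. Among peaks of at least 200 bp, 1 ABL1 peak was left downstream of the start of exon 2, since the exon 2 peak is narrower. The distal share ran from 60.7% to 77%, the GATA share of distal peaks from 42.9% to 53.5%, the BCR peaks inside the gene from 5 to 7 and the pathway genes with a promoter peak from 31 to 38, while 3 ABL1 peaks lay upstream of exon 2 under both alternatives run. Windows of 10 and 50 kb held 51 and 75 peaks. Genes with a promoter peak numbered 7 when only the 5′ end of the gene span was used and 8 under the other rules. What causes these shifts beyond the rules themselves was not examined.

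Depth limits what can be called, and the absence of a peak in the list says only that no region was kept there. No paired analysis was possible because libraries are pooled in the list and no result comes from a test. For the same reason no replicate could be left out. Narrow peaks, of which 12 of the 61 were under 200 bp, may be parts of wider regions that overlapped between libraries.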

Other observations

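The distal peaks of the remaining genes differed in their motifs. CISH had distal peaks of 448 and 780 bp at 10.6 and 21.0 kb downstream of its 5′ end, the first with a STAT5-type motif and the second, in the neighbouring gene HEMK1, with another. SOCS2 had distal peaks of 261 and 391 bp, 21.1 and 21.9 kb from its 5′ end, with no GATA, STAT or G4 motif in either. Downstream of STAT5B, 2 distal peaks of 468 and 387 bp lay 104 and 105 kb from its 5′ end, the former in the orexin gene HCRT with 70.5% GC. EPOR and JAK2 had no distal peak in their windows.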
